A study of Drosophila melanogaster with 12 samples.

Results

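Loss of Mediator function and loss of tMAC function both stop male germ cells of Drosophila melanogaster before the meiotic divisions. Here the testis transcripts of the Med22 knockdown were set directly against those of the aly mutant. All Drosophila probe sets of the array were compared, 18769 of 18952 rows once 183 Affymetrix control probe sets were left out, on 6 of the 12 arrays of the study (3 Med22RNAi and 3 aly).

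Med22RNAi testes carried the bam-gal4 driver, which is active in late spermatogonia and spermatocytes, together with a Med22 hairpin, and the study's methods give UAS-Dicer2 in the driver females. The aly testes came from aly2/aly5P trans-heterozygotes, which carry the mutation in every cell. The study also holds 3 arrays of the tTAF mutant sa (sa1/sa2) and 3 that the labels give as y,w and the study as wild type, which serve here as points of reference. Flies were raised at 25 °C, whole testes were taken from adults of 1 day without the seminal vesicles and accessory glands, and about 250 ng of total RNA entered each labelling reaction. No array held the driver without the hairpin. The Med22RNAi arrays were made for the study and the aly and sa arrays had been published before, so knockdown and array set cannot be told apart. The methods name the published control as red,e, not y,w, and whether the 3 wild-type arrays are that set could not be settled. The study calls the Med22RNAi arrays biological replicates, and for the aly arrays nothing says that the 3 came from separate flies, so p-values measure the spread between these arrays only.

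Primary spermatocytes of the fly spend days in an extended G2 phase, in which they transcribe most of the genes that will be needed for meiosis and for building sperm. A testis-specific form of the dREAM/MuvB complex called tMAC, which contains Aly, Comr and the zinc finger protein Topi, switches on much of this program together with the tTAFs, testis paralogs of subunits of the general factor TFIID. Mediator is the large complex that links sequence-specific regulators to RNA polymerase II, and Med22 is a subunit of its head module. In whole testes, fewer cells of a type and less RNA per cell cannot be told apart.

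Values are log2 signals from GCRMA, on which a difference of 1 is a 2-fold change, and the lowest value was 2.11 on every array. Probe sets below 3 made up 45.8% to 45.9% of a Med22RNAi array and 49.3% to 49.6% of an aly array. Median signals of the arrays lay at 4.15 to 4.25 for Med22RNAi and at 3.07 to 3.11 for aly, while upper quartiles were 9.10 to 9.13 in Med22RNAi and 9.05 to 9.13 in aly. Centring the arrays on their medians would therefore move every difference by 1.10 towards lower in Med22RNAi, whereas centring on expressed probe sets would move it by 0.08 the other way. Differences are given on the deposited scale, and higher calls lost with the median centring are named or counted where they arise. That centring also added lower calls, which are given for all genes and for some lists. Across probe sets, arrays correlated at 0.994 to 0.997 within Med22RNAi, at 0.993 to 0.996 within aly and at 0.871 to 0.894 between these genotypes. Germ line transcripts such as bam, nanos and Rbp4 were plainly present in both genotypes, while the probe sets of vas, a germ line helicase gene, and tj, a cyst cell regulator, lay at or near the lowest value throughout. MED22 had no probe set under its own symbol, so the knockdown itself could not be read from the arrays. The aly transcript was at 6.88, 7.55 and 7.38 in Med22RNAi testes and at 7.16, 7.44 and 7.76 in aly testes, a difference of -0.18 that did not pass the test (adjusted p = 0.82 from limma), and transcript level does not check these alleles. Dcr-2, the gene of Dicer2, differed by 0.58 (adjusted p = 0.0479 from limma), a difference that turned to -0.52 on median-centred arrays.

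The arrests were far apart in both directions. A call needed both an adjusted p under 0.05 from limma (Benjamini-Hochberg) and at least a 4-fold difference. By this rule 1908 probe sets (10.2% of all) were higher and 1223 (6.52%) were lower in Med22RNAi than in aly testes. The median log2 difference was 3.83 among those higher and -2.73 among those lower, and the same probe sets had medians of 2.72 and -3.83 on median-centred arrays, so which side differed more depends on the scaling. Of the higher probe sets, 635 lay under a log2 of 3 on all aly arrays, whereas 129 of the lower ones lay under 3 on all Med22RNAi arrays. Median centring left 1260 of the higher and all 1223 of the lower calls, but it moves every difference towards lower and so favours the latter. The total on those arrays was 1260 higher and 3094 lower. Centring on expressed probe sets, which moves differences the other way, left all 1908 of the higher and 1147 of the lower calls. Calls were thus 60.9% higher on the deposited scale, 28.9% higher with the median centring and 49.8% higher when the arrays were quantile normalized again.

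**Figure D1:**
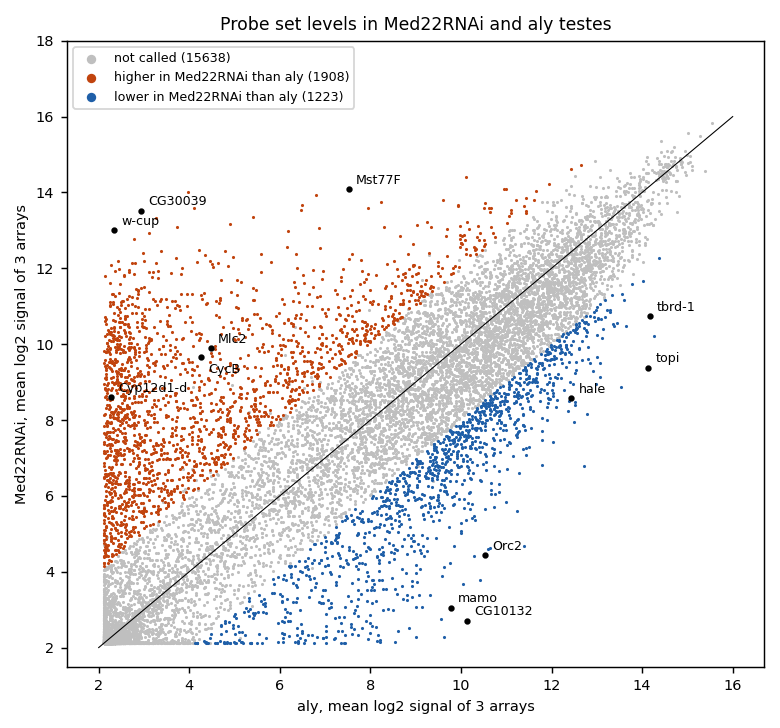
Mean log2 signal of each probe set in Med22RNAi (vertical axis) and aly testes (horizontal axis), 3 arrays each, with the line of equal levels. The 1908 probe sets called higher in Med22RNAi crowd at the low end of the aly axis, where 635 lie under 3 on all aly arrays, while most of the 1223 called lower lie in a band below the line.

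Wild-type testes gave a reference for both sides, although its arrays are shared by both comparisons with it. Among the 1908 higher probe sets the median log2 difference from wild type was -1.63 in Med22RNAi and -5.61 in aly. In Med22RNAi testes 851 of them were called lower than wild type and 586 higher (background over all probe sets 9.02% lower and 11.3% higher), and in aly testes 1210 were lower and 15 higher (background 10.3% lower and 14.3% higher). Among the 1223 probe sets lower in Med22RNAi than in aly, the median difference from wild type was -0.12 in Med22RNAi and 2.70 in aly. In Med22RNAi testes 175 of these were called lower than wild type and 73 higher, and in aly testes 8 were lower and 840 higher. The wild-type mean lay nearer to Med22RNAi than to aly for 1246 of the higher and for 982 of the lower probe sets.

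The largest positive differences were in transcripts that were abundant in Med22RNAi testes and near the floor in aly testes. The w-cup gene, one of a set whose transcripts gather at one end of elongating spermatids, had log2 signals of 13.47, 12.34 and 13.22 in Med22RNAi testes, against 2.32, 2.46 and 2.25 in aly testes. All Med22RNAi arrays were thus far above the aly arrays, which lay near the floor, and below the wild-type mean of 14.02. Where all arrays of a genotype lay under 3, that genotype was set to 3 and the fold is a lower bound, which for w-cup was at least 1030-fold higher (adjusted p = 1.52e-06 from limma). CG30039 showed the same shape, with 13.64, 13.26 and 13.67 in Med22RNAi testes and 2.81, 3.13 and 2.89 in aly testes (log2 difference 10.58, standard error 0.23, adjusted p = 5.02e-09). Rcd7, identified in fly cells as a gene that affects centrosome staining, was at 12.57, 11.79 and 12.20 in Med22RNAi, against 2.41, 2.43 and 2.42 in aly, at least 584-fold higher. Arrays that did not overlap were required of the 12 largest, whose other members CG12860, CG31820, CG31870, CG5762, CG9016, CG4375, CG4691, CG16719 and CG32371 carry no descriptive name. CG31820 was less even in aly testes, at 3.17, 3.11 and 5.62, and still differed by 10.05 (standard error 0.60).

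Genes of the sperm nucleus and tail stood out on the higher side. Counted with 1 probe set per gene, 13.2% of the 11982 genes were higher and 8.6% lower, with a median difference of 0.00. Of 8 measured genes of sperm chromatin, 6 were higher and none lower, with a median difference of 4.26. Mst77F, a linker-histone-like protein that packs sperm DNA, had 14.32, 13.82 and 14.14 in Med22RNAi testes, against 7.41, 7.66 and 7.48 in aly testes (difference 6.58, standard error 0.18). The protamine gene ProtB had 11.42, 10.75 and 11.33 in Med22RNAi, against 5.12, 4.55 and 4.33 in aly (difference 6.50). Neither gene showed any overlap between genotypes, which held for all called probe sets and so adds nothing to the call. Tpl94D, a transition-protein-like gene, was higher on the deposited scale only (2.36). Mst33A was at least 476-fold higher, and ddbt, which protects telomeres of the paternal chromosomes, at least 30.8-fold higher.

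Of 19 measured sperm tail genes, 10 were higher and 0 lower, with a median difference of 3.46. They included don juan-like (djl) at 12.57, 11.78 and 12.48 in Med22RNAi, against 3.99, 4.48 and 2.62 in aly (difference 8.58), the filament protein gene Tektin-A (difference 7.47, standard error 0.26), Mst27D (7.62), and Rsph9, which encodes a radial spoke head protein of the axoneme (at least 92.3-fold). Tail genes were not all of this kind. The list also held Mst84Da, Mst84Db, Mst84Dc and Mst84Dd, whose differences ran from -0.07 to 0.75 and were not called. Dnali1 and Dic61B, chains of axonemal dynein, were higher by 6.27 and 4.57, while the dynein heavy chain gene Dhc98D was lower, at 5.81, 5.64 and 5.08 in Med22RNAi testes and 8.84, 9.56 and 9.09 in aly testes. Over all 18 dynein chains 2 were higher and 1 lower. Of 7 measured Y-linked fertility genes only the phosphatase gene Pp1-Y2 was called, at 6.63, 4.56 and 5.51 in Med22RNAi, against 2.26, 2.77 and 2.14 in aly (at least 5.92-fold), and its 3 Med22RNAi arrays were spread more than those of the genes above.

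The cup and comet genes, named for where their transcripts lie in spermatids, are known for transcription after meiosis, beyond the arrest that the study describes in both genotypes. Of 11 measured cup genes 7 were higher and none was called lower, with a median difference of 5.23. The c-cup gene had 11.29, 10.74 and 11.11 in Med22RNAi testes and 2.38, 2.66 and 3.19 in aly testes. The t-cup gene had 10.67, 8.68 and 10.01 in Med22RNAi and 2.61, 2.40 and 2.58 in aly, at least 110-fold higher, and its mean in sa testes was 3.56. Comet genes split. Among 7 measured, sowi (difference 7.19), sunz (at least 30.8-fold) and boly (2.44, not called on median-centred arrays) were higher, and hale was lower. The hale transcript was at 8.80, 8.18 and 8.76 in Med22RNAi testes and 12.33, 12.49 and 12.51 in aly testes (difference -3.86, standard error 0.15, adjusted p = 1.22e-07), with a wild-type mean of 12.58, so aly testes held it near the wild-type level and all Med22RNAi arrays lay below.

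Testis forms of housekeeping proteins were called higher in large numbers, and few of their general forms were called. Many fly genes for mitochondrial, proteasomal and ribosomal proteins have a second copy that is used mainly in the male germ line. Of 19 measured testis forms of respiratory chain subunits, 11 were higher and none lower (median difference 4.14), whereas 0 of 54 general subunits were called (median -0.06). At an unadjusted p under 0.05 from limma, with no limit on size, 15 of these 54 were higher and 22 lower, at differences from -1.97 to 1.32. ATPsynCF6L, a copy of an ATP synthase coupling factor, had 11.84, 11.73 and 12.02 in Med22RNAi testes, against 2.86, 2.70 and 2.81 in aly testes, at least 466-fold higher, while its general form ATPsynCF6 differed by 0.06. COX5BL and COX6CL, copies of cytochrome c oxidase subunits, were at least 323-fold and at least 135-fold higher. On median-centred arrays 11 testis forms were still higher and 6 of the 54 general subunits were called lower.

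The proteasome showed a comparable contrast with exceptions. Of 13 testis-specific subunits, 6 were higher and 1 lower, and of 26 general subunits 0 were called, at differences from -1.53 to 0.40 (2 higher and 15 lower at an unadjusted p under 0.05 from limma, and 3 called lower on median-centred arrays). Prosalpha6T had 10.91, 10.40 and 10.71 in Med22RNAi, against 2.56, 2.60 and 2.56 in aly (at least 204-fold), and Prosbeta5R1 10.52, 9.79 and 10.09 in Med22RNAi, against 2.34, 2.26 and 2.46 in aly (at least 140-fold). Both were at the floor in every aly array. Rpn12R, a copy of a regulatory lid subunit, ran the other way, with 10.27, 10.20 and 10.29 in Med22RNAi testes and 13.08, 12.98 and 12.95 in aly testes (difference -2.75, standard error 0.08).

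Import and fusion of mitochondria, which form the nebenkern beside the spermatid nucleus, gave 7 higher and 0 lower of 23 genes, among them the import receptor gene tomboy20 (at least 291-fold) and the testis import genes ttm2 (difference 7.22), ttm3 (at least 61.4-fold) and Tim17a1 (at least 56.4-fold). Tim17b1 (3.01) was among the 7 on the deposited scale only. In translation, the testis cap-binding protein gene eIF4E4 was higher by 7.11 (standard error 0.21), and eIF4G1 and eIF4G2 by 2.89 and 2.23, neither of which was called on median-centred arrays. Of 41 cytoplasmic ribosomal protein genes only the copies RpL10Aa (at least 263-fold) and RpS28-like (4.78) were called, and the median of the list was 0.03. Among 69 mitochondrial ribosomal proteins 0 were higher and 3 lower, mRpL21 (-2.54), mRpL42 (-2.33) and mRpL41 (-2.18), and the median of the list was -0.81. On median-centred arrays 33 of the 69 were lower (against 22.2% of all genes). In glycolysis 6 of 13 enzymes were higher and none lower, led by Hex-t2, a hexokinase of the testis, with 11.63, 10.56 and 11.19 in Med22RNAi, against 4.88, 4.29 and 4.58 in aly. Pglym87 was at least 14.2-fold higher. The other calls, Hex-t1 (2.51), Tpi (2.43), Hex-A (2.27) and Ald1 (2.27), were lost with median centring, which left 2 of 13 higher and 1 lower.

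These contrasts could be set out pair by pair for 38 testis forms and the 30 general forms they resemble, in a list of pairs put together after values were seen. Of the testis forms, 28 were higher, 1 lower and 9 not called, with a median difference of 4.54. Of the general forms only the hexokinase gene Hex-A was higher, by 2.27, and none was lower, with a median of 0.16. With median centring 26 testis forms stayed higher, 0 general forms were higher, and ttm50 and ND-B14.5A were lower. The chaperone Hsc70-2 was a further case, with 11.58, 11.25 and 11.19 in Med22RNAi and 3.92, 4.21 and 4.86 in aly, whereas Hsc70-4 differed by 0.01. In the list of 14 heat shock genes 4 were higher (Hsc70-2, Hsp60D, Hsc70-1 and, on the deposited scale only, Hsp60B) and Hsp68 was lower, at 10.41, 10.23 and 10.77 in Med22RNAi testes and 13.28, 13.53 and 13.29 in aly testes.

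**Figure D2:**
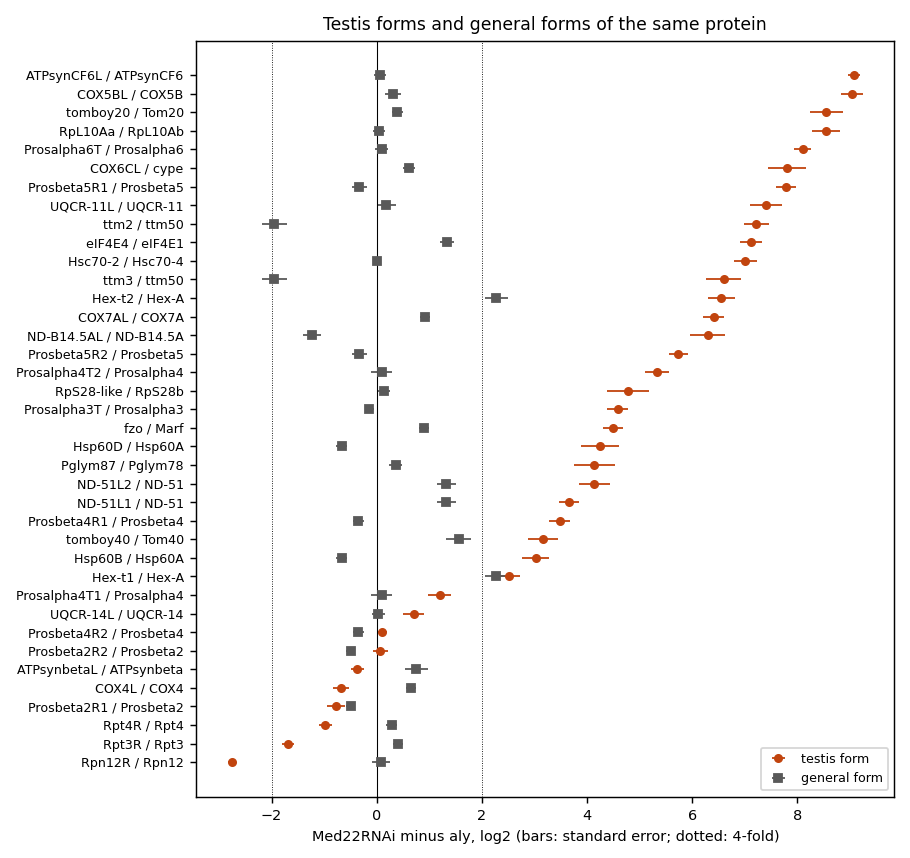
Log2 difference between Med22RNAi and aly testes for 38 testis forms (circles) and the general form of the same protein (squares), with standard errors from 3 arrays each and dotted lines at 4-fold. Testis forms run from -2.75 to 9.07 and 28 of them pass the upper line, while general forms stay between -1.95 and 2.27. On median-centred arrays all differences lie 1.10 lower.

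Other sperm genes followed with fewer calls. The spermatid gene janB was higher by 3.33 and was the 1 of 2 measured genes of the janus and ocnus cluster that was called. S-Lap5, of the leucyl aminopeptidases that are abundant in sperm, was higher by 3.93 and was the 1 of 4 measured that was called. Among 10 genes used when spermatids separate, Roc1b, a ring protein of the cullin ligase of this step, was higher by 5.63 and heph, an RNA-binding protein gene, by 4.38, whereas the apoptosome genes Dark (-2.53) and Dronc (-2.76) were lower. Of 8 tubulin genes only the maternal alphaTub67C was called, as lower (-3.59).

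The cell cycle genes of meiotic entry did not move as a block. The study scored CycB and twine by in situ hybridization, and bol by RT-PCR, as off in spermatocytes of both genotypes. The arrays read RNA of whole testes, which is another measure. Cyclin B (CycB) had 9.67, 9.62 and 9.73 in Med22RNAi testes, against 4.95, 4.09 and 3.76 in aly testes (difference 5.40, standard error 0.27, adjusted p = 4.40e-07), with a wild-type mean of 7.69, so Med22RNAi lay above wild type and aly below it. The translational regulator bol, which acts on twine mRNA, had 11.56, 11.04 and 11.19 in Med22RNAi, against 8.37, 8.57 and 8.44 in aly (difference 2.80), a call that median centring removed, and its other probe sets lay at or near the floor in Med22RNAi, aly and wild type. The meiotic phosphatase gene twine (twe) had 6.56, 6.65 and 6.66 in Med22RNAi and 6.33, 6.51 and 6.09 in aly (difference 0.32, adjusted p = 0.33), below the wild-type mean of 7.74 in both. Cyclin B3 (CycB3), which acts in mitosis and female meiosis, went the other way, at 8.38, 8.11 and 8.22 in Med22RNAi testes and 10.64, 10.72 and 10.64 in aly testes.

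Further genes that the study examined by in situ hybridization were compared on the arrays of whole testes. Of these, the study scored fzo and CG9173 as off in spermatocytes of both genotypes. The mitofusin gene fzo, which fuses mitochondria in spermatids, had 7.33, 7.19 and 7.44 in Med22RNAi, against 2.67, 2.91 and 2.88 in aly (at least 20-fold, adjusted p = 1.56e-07), with a wild-type mean of 10.36. CG9173 had 9.32, 8.58 and 9.15 in Med22RNAi, against 2.68, 3.31 and 3.36 in aly (difference 5.90), with a wild-type mean of 11.96. For both genes the Med22RNAi arrays lay between those of wild type and aly. Of transcripts used as examples that need neither complex, Rbp4 differed by -1 and fest by 1.86, both short of 4-fold on the deposited scale. CG3927 had 11.62, 11.61 and 11.73 in Med22RNAi testes and 14.09, 13.93 and 14 in aly testes (difference -2.35, standard error 0.12, adjusted p = 5.44e-07), below and above the wild-type mean of 12.46. CG46298, the current name of CG12907, differed by -0.57 (adjusted p = 0.0192). The study scored CG3927 and CG12907 as off in Med22RNAi and on in aly spermatocytes. Their means on the Med22RNAi arrays were nevertheless 11.66 and 13.03.

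Some genes whose products drive transcription in spermatocytes were lower in Med22RNAi than in aly testes. Against wild type, no tMAC or tTAF gene was called lower in either genotype. In Med22RNAi 3 tMAC and 1 tTAF genes were called higher than wild type, and in aly 8 and 4 were (background over all probe sets 11.3% and 14.3%). Of 9 tMAC genes 4 were lower and none higher (median -1.26). The topi transcript had 9.39, 9.28 and 9.48 in Med22RNAi testes and 13.95, 14.32 and 14.11 in aly testes (difference -4.74, standard error 0.12, adjusted p = 9.97e-09), on either side of the wild-type mean of 11. The comr transcript had 7.08, 7.45 and 7.37 in Med22RNAi and 10.54, 10.60 and 10.27 in aly, and mip40 was lower too (-2.09). The homeodomain gene vis was lower (-2.01) and lost its call without Med22RNAi replicate 2, aly replicate 1 or aly replicate 2 (differences down to -1.90). Its near copy achi differed by 0.19. Of 5 measured tTAF genes 3 were lower. They were sa, with 10.34, 10.63 and 10.49 in Med22RNAi and 13.64, 13.72 and 13.58 in aly, nht (-2.13) and can (-2.05), and can fell short at -1.95 without aly replicate 2. The difference was close to 0 for mia (-0.06).

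Genes of testis chromatin readers were lower in Med22RNAi than in aly as well. Their list of 6 had a median difference from wild type of 0.06 in Med22RNAi and of 2.72 in aly. The bromodomain genes tbrd-1, tbrd-2 and tbrd-3, whose proteins bind acetylated histones in spermatocytes, had log2 differences of -3.45, -4.66 and -3.27. For tbrd-2 the arrays read 8.79, 8.86 and 8.95 in Med22RNAi testes and 13.22, 13.91 and 13.45 in aly testes. The zinc finger gene kmg, which keeps genes of other tissues off in spermatocytes, had 9.55, 9.75 and 9.57 in Med22RNAi and 12.09, 11.97 and 11.98 in aly. In the list of 6 the remodeler subunit gene E(bx) was higher by 2.73, on the deposited scale only. Of 7 measured generic dREAM genes, mip130 (-2.61) and Rbf2 (-3.08) were lower and 0 higher. TFIID gave 1 call among 12, Taf4, higher by 2.04 on the deposited scale only and short of 4-fold without Med22RNAi replicate 2 or aly replicate 1 (lowest 1.94).

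Mediator subunit genes other than Med22 were in part lower in Med22RNAi than in aly testes. In the head module 2 of 9 were lower, MED8 at 9.60, 10.03 and 9.68 in Med22RNAi testes and 12.19, 12.17 and 12.17 in aly testes, and MED28 (-2.12). In the tail module 3 of 7 were lower (MED16, MED24 and MED25, at -2.45, -2.63 and -2.74). In the middle module MED1 (-2.73) and MED4 (-2.05) were lower, MED4 not with arrays centred on expressed probe sets (-1.98). MED26 was higher at 10.58, 10.49 and 10.59 in Med22RNAi, against 8.32, 8.50 and 8.66 in aly. This call of 2.06 was lost with median centring and without aly replicate 1. Cdk8, the kinase of the kinase module, was lower (-2.52). The medians of the 4 modules ran from -1.45 to -0.65. None of 6 measured RNA polymerase II genes was called, with 4 higher and 2 lower at an unadjusted p under 0.05 from limma. Among 10 Polycomb genes esc (-3.57) and Sce (-2.02) were lower, Sce falling short without Med22RNAi replicate 1 (-1.98) or aly replicate 3. Against wild type, esc and Sce differed by 1.54 and 2.60 in Med22RNAi and by 5.11 and 4.62 in aly.

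**Figure D3:**
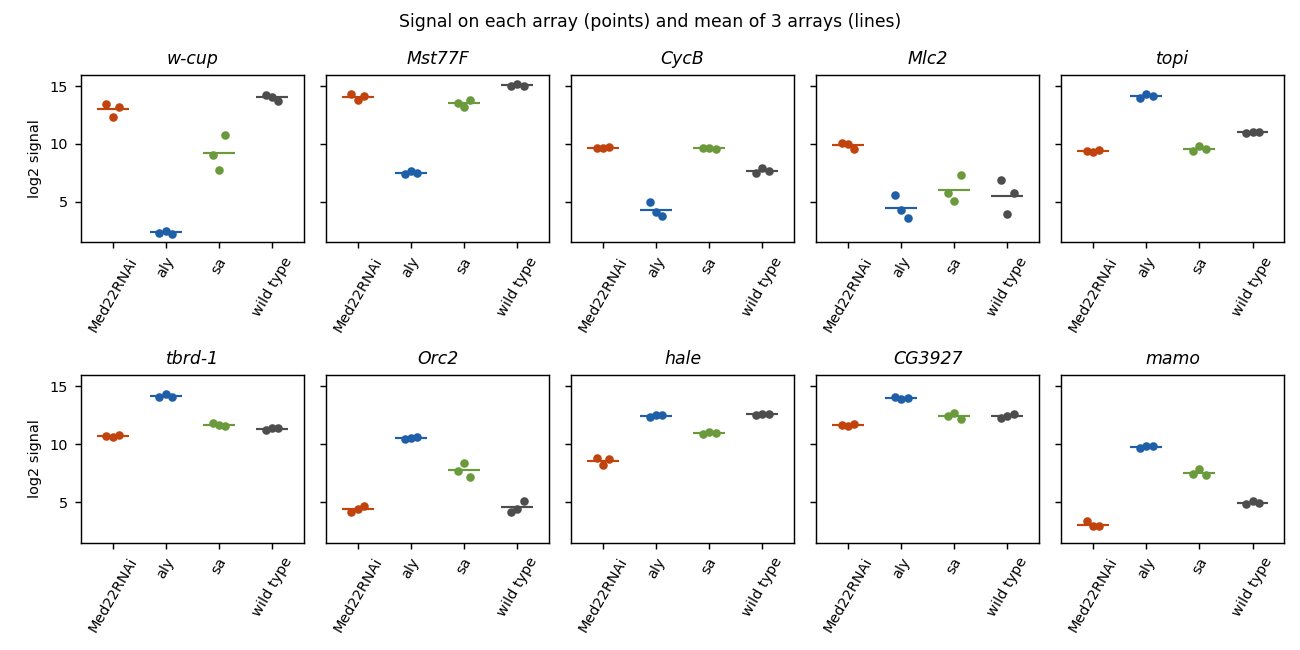
Log2 signal of 10 genes on each of the 12 arrays, with Med22RNAi on the left, then aly, sa and wild type, and a line at the mean of each genotype. The upper row holds 4 genes higher in Med22RNAi than in aly and topi, and the lower row holds genes lower in Med22RNAi than in aly. The Med22RNAi and aly arrays do not overlap for any of them, as for all 1908 higher and all 1223 lower calls.

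DNA replication genes were lower in large part. Of 21 measured, 11 were lower (52.4%) and 1 higher, with a median difference of -2.20, and 16 were lower on median-centred arrays. Orc2, a subunit of the origin recognition complex, had 4.18, 4.42 and 4.70 in Med22RNAi testes and 10.48, 10.50 and 10.63 in aly testes (difference -6.10, standard error 0.32, adjusted p = 6.40e-07), with a wild-type mean of 4.53. The Med22RNAi arrays were thus near wild type and the aly arrays well above. Orc5 (-3.34), Orc1 (-2.96) and Psf1 of the GINS complex (-3.14) were lower as well. Cyclin E (CycE) was the exception, at least 4.48-fold higher, with 4.95, 4.87 and 5.66 in Med22RNAi and values under 3 in aly, and it was not called on median-centred arrays. Rif1, which sets replication timing and late origins, was also among the 12 largest negative differences, at 3.01, 3.31 and 2.87 in Med22RNAi and 8.84, 9.13 and 9.40 in aly.

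Genes that shape meiotic chromosomes and guard the genome moved the same way in part. Of 15 condensin, cohesin and bivalent genes 4 were lower and none was called higher, the condensin genes SMC2 (-2.63), Cap-H2 (-3.03) and Cap-D2 (-2.09) and sunn, a cohesin-like gene of meiosis (at least 10.3-fold lower). Cap-D2 fell short at -1.92 without Med22RNAi replicate 3. In the piRNA pathway, which silences transposons in the germ line, 7 of 24 genes were lower and 1 higher, with a median difference of -0.42. The tej gene, a Tudor protein of the nuage, had 5.02, 5.61 and 5.42 in Med22RNAi testes and 9.43, 9.52 and 9.23 in aly testes, and Panx (-3.12), krimp (-2.75) and zuc (-2.70) followed. The Argonaute gene AGO3 was higher by 2.41, which was not called with median centring. None of 7 spermatogonial genes and none of 6 siRNA and miRNA genes was called, and in each list 2 were higher and 2 lower at an unadjusted p under 0.05 from limma. Of 21 nucleolar genes 2 were lower, among them Mybbp1A (-2.34).

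**Figure D4:**
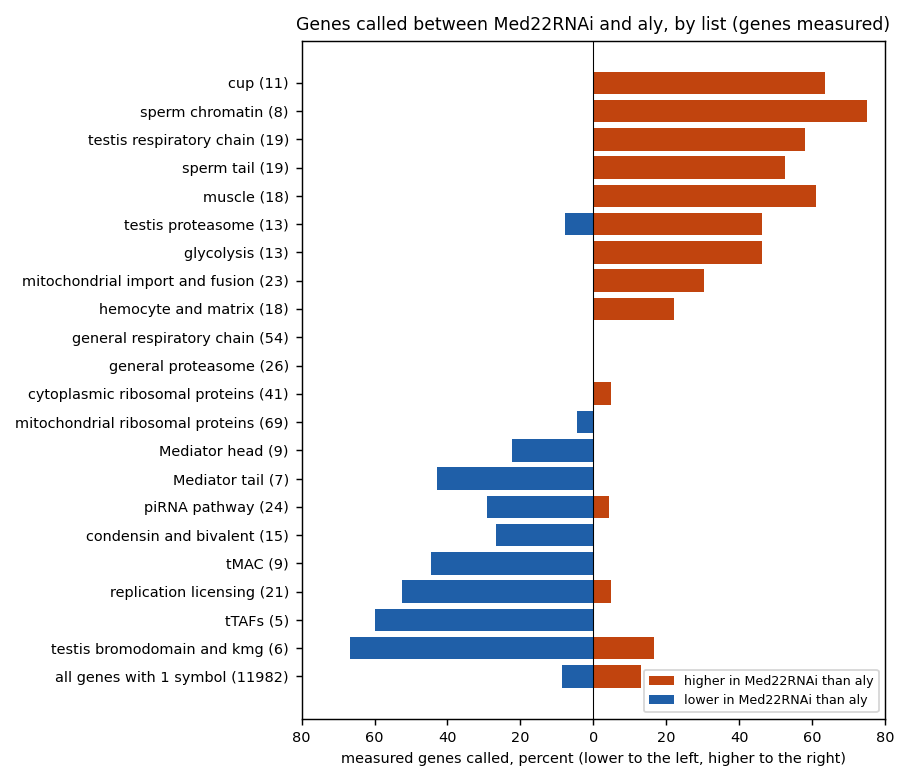
Percent of the measured genes of each list called higher (to the right) or lower (to the left) in Med22RNAi than in aly, with the number measured in brackets and all genes in the bottom row. All genes gave 13.2% higher and 8.6% lower, replication licensing 52.4% lower and the general respiratory chain and proteasome 0%. On median-centred arrays all genes gave 9.01% higher and 22.2% lower.

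The 12 largest negative differences were on probe sets with little signal in Med22RNAi testes, although some of these genes had other, stronger probe sets. CG10132 had 2.60, 2.98 and 2.55 in Med22RNAi and 10.07, 10.13 and 10.22 in aly, at least 141-fold lower (adjusted p = 1.86e-09), with a wild-type mean of 2.56. The BTB zinc finger gene mamo, known as a maternal factor of meiosis, had 3.32, 2.90 and 2.93 in Med22RNAi and 9.68, 9.81 and 9.84 in aly on its strongest probe set, while its other probe sets, none above a mean of 4.04, differed by 1.93, 0.01, -0.38 and -1.44. Both genes were near or below wild type in Med22RNAi and well above it in aly. The glutathione transferase and zinc finger gene gfzf was lower on both of its probe sets (-6.65 and -3.03), the second with a mean of 8.04 in Med22RNAi. Tusp, a Tubby-like protein gene, was at least 98.9-fold lower and spri, which encodes a guanine nucleotide exchange factor for Rab5, at least 93.8-fold lower. A further probe set of spri had means of 5.84 in Med22RNAi and 11 in aly (-5.15), and its others lay near the floor. CG12692, with a wild-type mean of 10.40, was at 4.65, 4.56 and 4.81 in Med22RNAi and 12.04, 11.37 and 10.79 in aly, and was the member in which Med22RNAi lay farthest below wild type. The rest were CG9988 (at least 64.3-fold) and, by log2 difference, CG17601 (-6.01), CG17207 (-6) and the synaptotagmin gene Syt14 (-5.95). The other probe set of CG17207 was stronger, with means of 8.96 in Med22RNAi and 12.47 in aly (difference -3.51).

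Muscle transcripts were in large part higher in Med22RNAi testes, and fewer genes of the other somatic lists were called. The muscle sheath gave 11 of 18 contractile genes higher and 0 lower, with a median difference of 2.48 (7 higher on median-centred arrays). The myosin light chain gene Mlc2 had 10.10, 10.03 and 9.53 in Med22RNAi, against 5.57, 4.30 and 3.57 in aly (difference 5.41, standard error 0.86), with a wild-type mean of 5.53. TpnC4, a troponin C, was higher by 4.47 and bt, a titin-like kinase of muscle, by 5.45. The summed linear signal of the 18 genes lay between 17547 and 24328 on Med22RNAi arrays, between 3080 and 5344 on aly arrays and between 14677 and 20287 in wild type. Such a sum is weighted towards abundant transcripts. By gene, 8 of the 18 were called higher than wild type in Med22RNAi and 0 lower (median 1.61). In aly 0 were higher and 3 lower (median -0.50). Of 18 hemocyte and matrix genes 4 were higher, the GATA factor gene srp (3.79) and, on the deposited scale only, LanA, Col4a1 and vkg of the basement membrane. Med22RNAi arrays had the largest sums for this list, at 12547 to 15523. Unlike for muscle, the aly sums (3766 to 6241) all exceeded those of wild type (2446 to 2960). The call of vkg fell short at 1.82 without aly replicate 3 and was also lost without Med22RNAi replicate 2. Yet Hml, a defining hemocyte gene, differed by -1.69, and He was at the floor.

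Of 14 genes of hub and cyst cells, the soma that encloses the germ cells, zfh1 (at least 10.7-fold), chinmo (3.81) and, on the deposited scale only, CadN (2.34) were higher, while esg was lower, at 3.50, 3.38 and 3.93 in Med22RNAi and 7.32, 6.99 and 5.99 in aly. Med22RNAi sums reached 5910 to 7297, while the aly range (1399 to 2065) overlapped that of wild type (1742 to 2483). The genes tj, upd1 and upd2 were near the floor in both Med22RNAi and aly. Seminal fluid transcripts, from a gland that was dissected away, differed by 0.17 to 3.69 over all 22 measured genes, and only Acp36DE was called (11.89, 10.72 and 12.84 in Med22RNAi, 9.22, 8.24 and 6.92 in aly, adjusted p = 0.016), a call lost without Med22RNAi replicate 3 or aly replicate 3 (adjusted p up to 0.0614). Here the Med22RNAi sums (24043 to 90659) overlapped those of wild type (26406 to 212503), while aly sums were smaller (12606 to 20102). Of 8 fat body genes 1 was called, apolpp (5.64), and the yolk protein genes Yp1 and Yp2 were at the floor. The part that unequal amounts of somatic tissue have in the higher genes was not tested.

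The position of a gene in the genome went with the sign of its difference, in counts taken after values were seen. Among 7523 genes with a mean log2 level of at least 6 in Med22RNAi or aly, 19.1% were higher and 12.9% lower. A gene high in only 1 of these genotypes passed this filter, so the shares depend in part on the choice of genes. Wild type had no part in the choice, and the same filter applied to all chromosomes and gene lengths. On the small and largely heterochromatic chromosome 4, 21 of 33 such genes (63.6%) were higher and 1 was lower, against 20.1% higher and 11.8% lower of 6269 on chromosomes 2 and 3. The median level of the chromosome 4 genes was 9.50, 9.89 and 9.79 on the Med22RNAi arrays and 7, 6.89 and 6.97 on the aly arrays, with 9.09, 8.75 and 8.47 in wild type. Among these genes, chosen without wild type, the Med22RNAi arrays were all above wild type and the aly arrays all below it. Some of the genes entered through Med22RNAi alone, such as unc-13 (aly mean 2.55) and ci (aly mean 3.68). Rnf11 (5.37), a ubiquitin ligase gene, unc-13 (4.56), which acts in vesicle priming, and ci (4.06), the transcription factor of Hedgehog signalling, were among the 21, together with eIF4G1, MED26, bt and apolpp named above, and Mpv17 (-2.61) was the 1 that was lower. Leaving out any 1 array gave 60.6% to 63.6% higher, and median centring 33.3%, against 14.9% on chromosomes 2 and 3.

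The X chromosome leaned the other way, with 12.2% higher and 18.5% lower of 1199 genes and a median difference of -0.61, against -0.07 on chromosomes 2 and 3. Its median level was 8.53, 8.63 and 8.60 on Med22RNAi arrays and 9.26, 9.33 and 9.28 on aly arrays, with 8.16, 8.33 and 8.42 in wild type. On median-centred arrays 42.9% of X genes were lower, against 30% on chromosomes 2 and 3.

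The shares also differed with gene length. Of genes under 1 kb, 28.7% were higher and 8.41% lower, with a median difference of 0.22, and of those between 2 and 4 kb 11.8% were higher and 15.8% lower. Of 237 genes over 32 kb, 45.6% were higher and 7.17% lower, with a median difference of 1.70. Their median difference from wild type was 1.73 in Med22RNAi and 0.15 in aly. Without genes of the muscle, hemocyte and cyst cell lists 44.6% of 231 were higher, and on median-centred arrays 23.6% of the 237. Chromosome 4 genes are long, with a median of 9271 bases, against 2248 on chromosomes 2 and 3. Within genes of at least 8 kb, 15 of 19 (78.9%) on chromosome 4 were higher, against 30.1% on chromosomes 2 and 3 and 23.2% on the X.

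**Figure D5:**
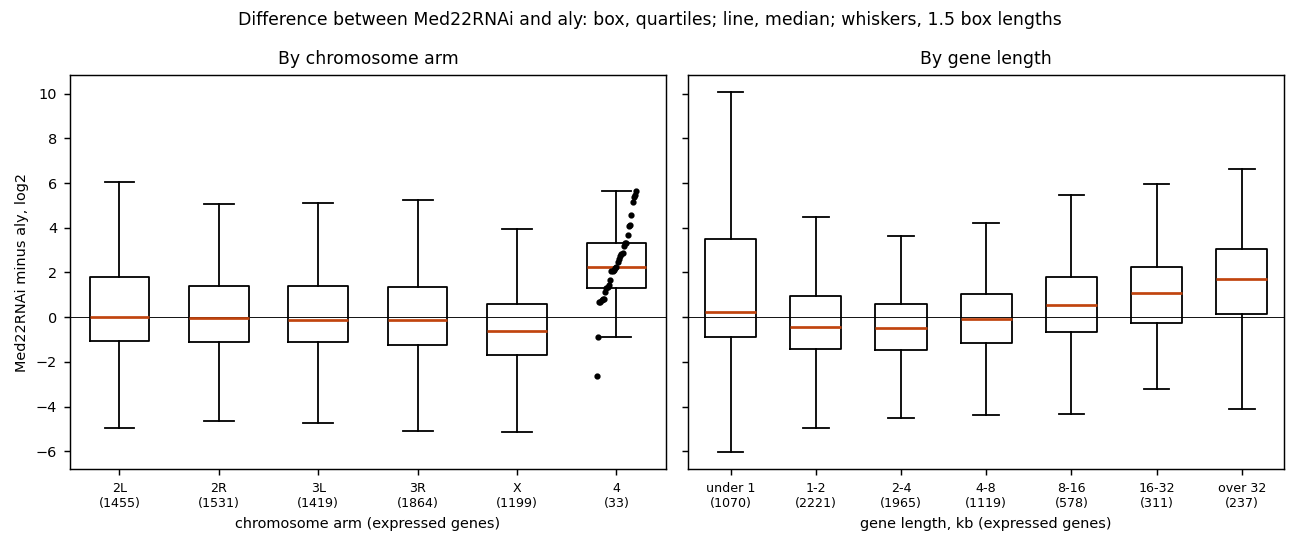
Log2 difference between Med22RNAi and aly testes for expressed genes by chromosome arm (left, with the 33 genes of chromosome 4 as points) and by gene length (right), with gene numbers in brackets. Boxes give quartiles and the line the median, which is 2.26 on chromosome 4, -0.61 on the X and 1.70 for genes over 32 kb. On median-centred arrays these medians are 1.15, -1.72 and 0.60.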

How the data were processed

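The deposited values are log2 signals, 1 per probe set and array, which the authors made with GCRMA (background correction, normalization and probe summary; version not given in the sources used here), from 250 ng of total RNA per array and a 3′ labelling kit. The methods state that the Med22RNAi data were analysed with the published arrays, and whether GCRMA was run on all 12 jointly is not given in the sources used here. No filter on low signal was applied. The 183 Affymetrix control probe sets were removed. A platform table gave exactly 1 symbol to 13647 of 18769 probe sets (11982 genes), several to 402 and none to 4720, and RefSeq's release 6 table, in which 13544 were found, gave gene lengths and chromosomes. CycA, gdl and w, like MED22, had no probe set of their own and were not analysed.

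A linear model with 1 mean for each of the 4 genotypes was fitted with limma 3.58.1 (R 4.3.3, lmFit, then eBayes without trend) on the 12 arrays together, which share 1 estimate of the spread. Benjamini-Hochberg adjustment ran over the 18769 probe sets. All adjusted p-values are from this fit. Calls needed an adjusted p under 0.05 and 4-fold. In 61 gene lists each gene was represented by the probe set with the highest mean over the 12 arrays. Named genes were the 12 largest differences each way among called probe sets with 1 symbol and non-overlapping arrays that were also called after median centring, up to 4 called members each way of each list, the study's array and in situ genes, and genes that bear on the labels. Others were named after their values were seen. The members and lists were chosen with earlier results of these data known. Some entries that share a prefix but not the function were removed from 2 lists, but GluRS-m stayed in the list of ionotropic receptors. On simulated data for this comparison the fit called 47 of 50 probe sets raised by 3, 48 of 50 lowered by 3, and 0 of 18569 unchanged ones. With changes of 1.5, under the limit, it called 3 and 1 of 50. Changes were simulated only in probe sets at middle signal levels, with independent noise and no shift between the array sets. These rates therefore do not carry over to calls near the floor. Python 3.11.15, pandas 2.3.3 and matplotlib 3.10.9 drew the figures. Scaling, filters, limits, a replicate block and single arrays left out were tried as alternatives.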

Additional observations from a re-analysis of the deposited data

How the results depend on the processing

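Only 3 arrays a genotype limit the precision, and transcripts near the floor have only bounds. Fitting the 6 arrays alone, a variance trend, signals filtered or floored at 4, and a stricter adjusted p of 0.01 left the counts within 1.5 times of 1908 higher and 1223 lower. Centring on the array median gave 1260 higher and 3094 lower, and a 2-fold limit 2953 higher and 2741 lower. With centring on expressed probe sets 1976 were higher and 1148 lower, and the named lower genes vis, can, MED4 and Sce lost their calls. Leaving out 1 array gave 1841 to 1931 higher and 1198 to 1253 lower. On median-centred arrays 25 of 188 named genes fell below the limit, 1 passed it and the Dcr-2 difference turned to -0.52 (adjusted p = 0.0196 from limma), and when arrays were quantile normalized again 18 fell below it. The replicate numbers are shared by both genotypes, but deviations of same-numbered arrays correlated at -0.094, 0.068 and -0.033, so the numbers pair nothing. With the replicate block 1905 were higher and 1221 lower. A planned search for promoter motifs was not run, since promoter sequence was not used here. The cause of these shifts was not tested.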

Other observations

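Large families of detoxifying enzymes, receptors and cuticle proteins held single genes that were far apart between the arrests, at shares below those of all genes (13.2% higher, 8.6% lower). Both genotypes had a mean under 3 for 59 of 79 genes listed by prefix as ionotropic and other ligand-gated receptors. The same held for 88 cuticular protein genes and 22 of 35 UDP-glycosyltransferases. It held for only 35 of 83 cytochrome P450 genes and 6 of 34 glutathione S-transferases. Of the P450 genes 7 were higher and 2 lower (4 and 6 on median-centred arrays). Cyp12d1-d, a mitochondrial P450 known for insecticide metabolism, had 8.21, 8.67 and 8.92 in Med22RNAi testes, against 2.14, 2.29 and 2.38 in aly testes, at least 48.5-fold higher, with means of 2.13 in sa and in wild type. It was therefore above the floor in Med22RNAi alone. Cyp4d14 was at least 9.36-fold lower, under 3 on all Med22RNAi arrays. Of 34 glutathione S-transferases the neighbouring genes GstD3 (4.67), GstD2 (at least 8.57-fold) and GstD5 (3.77) were higher, and of 35 UDP-glycosyltransferases Ugt35B1, Ugt35A1 and Ugt37D1 were, on the deposited scale only. Ugt35B1 lost its call without any 1 of the 6 arrays (adjusted p from 0.0507 to 0.0740).

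Of 112 odorant and gustatory receptors 1 was higher (Or65b, on the deposited scale only) and 3 lower. Of 79 genes listed by prefix as ionotropic and other ligand-gated receptors 1 was higher and 3 lower. The lower ones were Ir25a, Ir76a and GluRS-m, the last a tRNA synthetase gene and no receptor. The odorant receptor gene Or9a was at 2.11 on all Med22RNAi arrays and at 6.22, 6.52 and 6.84 in aly, with 2.11 in sa and in wild type, so it was read in aly testes alone. Ir11a was its mirror image, with 7.12, 7.53 and 7.46 in Med22RNAi and the lowest value in aly. Of the cuticular protein genes 3 (2.88%) were higher and 6 (5.77%) lower, with Cpr76Bc at least 30.8-fold and TwdlT at least 21.4-fold lower, and of 47 odorant-binding proteins 2 were higher (Obp56i on the deposited scale only) and 1 lower. Of 24 nuclear receptor and ecdysone response genes Eip93F, at 7.60, 8.12 and 8.02 in Med22RNAi and near the floor in aly (at least 30.2-fold), stood with Eip63E and ftz-f1, both called on the deposited scale only. The ftz-f1 call was lost without Med22RNAi replicate 1 or 2 or aly replicate 3 (adjusted p up to 0.0564). Among 18 kinesins unc-104 was higher by 3.44 and ncd lower (-2.20). Of 20 cullin and F-box genes Roc1b was higher and SkpE (-3.27) and Fbxo42 (-2.56) were lower. Of 6 antimicrobial genes Drs and Mtk were higher on the deposited scale only, with uneven Med22RNAi arrays (7.80, 9.88 and 8.68 for Drs), and both fell short without Med22RNAi replicate 2, Mtk also without Med22RNAi replicate 3, aly replicate 1 or aly replicate 3. None of 6 ejaculatory duct, 21 trypsin and Jonah protease and 6 ABC transporter genes was called. At an unadjusted p under 0.05 from limma the ejaculatory duct had 1 higher, the proteases 3 lower, and the transporters 2 higher and 1 lower.

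Across all probe sets, arrays of the tTAF mutant sa correlated at 0.946 to 0.958 with Med22RNAi arrays and at 0.902 to 0.920 with aly arrays. Among the probe sets called between Med22RNAi and aly, sa took a middle position. Its mean lay nearer to Med22RNAi than to aly for 1154 of the 1908 higher (60.5%) and for 535 of the 1223 lower probe sets (43.7%), and its median level was 7.78 among the higher and 8.46 among the lower ones. Of 239 called genes with several probe sets, 89 further probe sets had a mean of at least 6. The sign of the call was shared by 75 of them, 56 were called the same way and 7 the opposite way.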
